A study of Mus musculus with 24 samples.

Results

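The miR-34 family consists here of 5 mature mouse miRNAs, mmu-miR-34a-5p, mmu-miR-34b-5p, mmu-miR-34b-3p, mmu-miR-34c-5p and mmu-miR-34c-3p, taken by name from the 1881 miRNAs on the arrays, with every probe of each. The species prefix is left out from here on. miR-34a-5p was bright on all 24 arrays and was higher in mice fed the NASH diet in both liver and serum, whereas miR-34b and miR-34c lay at or below the limit of detection. NASH is nonalcoholic steatohepatitis, a fatty liver disease with inflammation and liver cell injury. The study profiled miRNAs in liver and in heart-blood serum of male C57BL/6NJcl mice with 1-colour Agilent arrays. NASH mice ate CDAHFD (A06071302), a high-fat diet without choline that contained 0.1% methionine, and control mice ate the solid diet CE-2. All mice were bought at 5 weeks of age and acclimatized for 1 week, and tissue was taken after 1, 2 and 6 weeks on the diet, at ages of 7, 8 and 12 weeks. Each of the 12 combinations of tissue, diet and week had 2 arrays, which gives 6 NASH and 6 control arrays per tissue. Nothing in the labels tells whether the pair of arrays of a group came from separate animals or from pooled RNA, and p-values cover the spread between these arrays alone. The diets differed in fat, choline and methionine together, and these cannot be told apart.

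The miR-34 genes are among the best-known direct transcriptional targets of p53, the transcription factor that answers DNA damage and other cell stress. Their 5p arms pair through a shared seed with messages for cell cycle and survival proteins and with Sirt1, a deacetylase that acts on p53 itself. miR-34a comes from its own gene and is made in many tissues, while miR-34b and miR-34c are cut from 1 shared transcript that is best known from ciliated epithelium, testis and brain.

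The sequences are shown because the seed sorts the family into arms that read the same targets, and because the 5p arms are alike enough that their probes have to be told apart. The RefSeq table (GRCm38.p6) held 4 of the 5 members, all but miR-34c-5p. Capitals mark the seed, bases 2 to 8 counted from the 5′ end. The gene of miR-34a lies on the plus strand of chromosome 4 and those of miR-34b and miR-34c on the minus strand of chromosome 9, where 451 bases separate the 2 hairpins. The mature miR-34a-5p lies at chr4:150068473-150068494, miR-34b-5p at chr9:51103610-51103632, miR-34b-3p at chr9:51103574-51103595 and miR-34c-3p at chr9:51103044-51103065.
miR-34a-5p: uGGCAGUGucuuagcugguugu
miR-34b-5p: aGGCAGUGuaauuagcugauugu
miR-449a-5p: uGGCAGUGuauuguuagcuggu
miR-449c-5p: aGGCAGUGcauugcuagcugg
miR-34b-3p: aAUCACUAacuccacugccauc
miR-34c-3p: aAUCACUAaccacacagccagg
The seed of miR-34a-5p and miR-34b-5p was found in 4 mature miRNAs of the table, the other two being miR-449a-5p and miR-449c-5p from chromosome 13, which are no members. The seed of miR-34b-3p and miR-34c-3p was found in these 2 alone. The sequences of miR-34c-5p and miR-449b were not among those compared, so these counts do not cover them. miR-34a-5p, 22 bases long, and miR-34b-5p, 23 bases long, had 19 identical bases when aligned end to end, and 8 of them ran unbroken from base 2. The sequences of the probes were not used here.

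Each member had 2 probes with 10 to 15 spots kept per array. Intensities below are processed signals in arbitrary units, background-subtracted by the scanner software, so that a probe without target lies near 0. The arrays detected 337 to 379 miRNAs in NASH livers, against 253 to 307 in control livers, and 313 to 399 in NASH sera, against 235 to 362 in control sera. The 75th percentile used to scale each array was also higher on NASH arrays, with a mean log2 of 9.42 ± 0.27 in NASH livers and 8.99 ± 0.25 in control livers, and of 8.75 ± 0.32 in NASH sera and 7.97 ± 0.81 in control sera (SD, n = 6 each). The serum array of control week 1, replicate 2, lost 3389 spots to outlier flags, against 1384 to 1722 on the other arrays. Both diets of a week shared a slide, but NASH and control arrays stood in different slide columns, and the effects of diet and of column position cannot be told apart.

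NASH livers had several times more miR-34a-5p signal than control livers at every week. Its brighter probe read 1101 and 593 in NASH livers, against 139 and 152 in control livers, at week 1. At week 2 it read 883 and 1160 in NASH livers and 86.8 and 119 in control livers. At week 6 it read 1547 and 1833 in NASH livers and 77.1 and 132 in control livers. The lowest NASH array, at 593, was above the highest control array, at 152, so the diets did not overlap before any scaling.

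**Figure D1:**
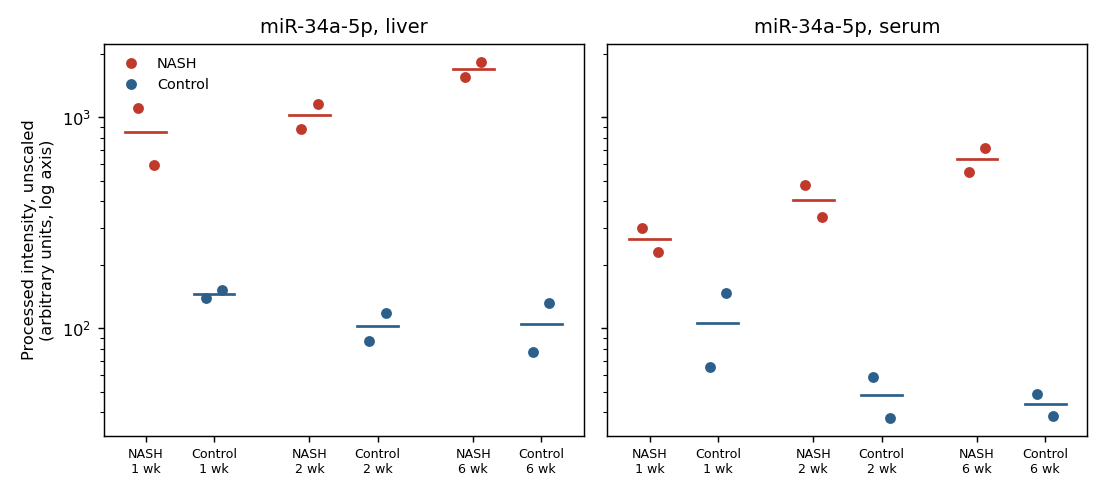
Processed intensity of the brighter miR-34a-5p probe on each array (points; arbitrary units, log axis) with the mean of each pair (bars), for liver and serum at weeks 1, 2 and 6, NASH left of Control. In each tissue all 6 NASH arrays lie above all 6 control arrays, with the lowest NASH liver array at 593 and the lowest NASH serum array at 230.

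After scaling, miR-34a-5p rose by a log2 difference of 2.85 (SE 0.11) over the 3 weeks in liver, which is 7.23-fold (limma, adjusted p = 6.04e-06). An exact permutation of diet within weeks gave p = 0.00926, two-sided, the smallest that 216 arrangements allow. This was the highest difference of the 388 miRNAs tested in liver, of which 42.3% passed in either direction. Week by week it rose 3.91-fold at week 1 (1.97, SE 0.20, adjusted p = 0.00183), when 11.6% of miRNAs passed. It rose 8.12-fold at week 2 (3.02, SE 0.20, adjusted p = 1.30e-04), when 30.7% passed, and 11.9-fold at week 6 (3.58, SE 0.20, adjusted p = 5.62e-05), when 28.4% passed. Its place among the 388 differences was 3, 3 and 1 at weeks 1, 2 and 6.

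In serum the same miRNA was also higher on NASH arrays, with a smaller gap at week 1. Its brighter probe read 298 and 230 in NASH sera, against 65.9 and 146 in control sera, at week 1. At week 2 it read 478 and 336 in NASH sera and 58.9 and 37.6 in control sera. At week 6 it read 553 and 715 in NASH sera and 49.0 and 38.3 in control sera. The diets did not overlap, and the highest control serum was the array with the many discarded spots.

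miR-34a-5p rose 4.01-fold in serum over the 3 weeks (log2 2.00, SE 0.14, adjusted p = 0.00107), in 6 of 6 NASH arrays above every control array, and the exact permutation again gave its smallest p, 0.00926. Of 426 miRNAs tested in serum 18.8% passed, and the difference of miR-34a-5p was number 3 from the top. With the replicate number as a block, which drops the array without a number in its label, it was 2.11 (SE 0.19) and did not pass (adjusted p = 0.0516), nor did week 2 (2.03, adjusted p = 0.178) or week 6 (3.12, adjusted p = 0.0976). The replicate block was fitted separately in each week, so it differs from a block by slide row in form as well as in arrays. Slide row coincides with that number. With slide row as a single block shared by the weeks, over all 12 arrays, the difference over the 3 weeks passed (2.00, adjusted p = 0.00294), as did weeks 2 and 6 (0.0343 and 0.00932). Without the control array with many discarded spots it was 2.06 (SE 0.16, adjusted p = 0.00304). At week 1 the difference was 1.18 (SE 0.25) and did not pass (adjusted p = 0.104). Serum miR-34a-5p rose 4.07-fold at week 2 (2.03, SE 0.25, adjusted p = 0.0210), when 2.58% of miRNAs passed, and 6.97-fold at week 6 (2.80, SE 0.25, adjusted p = 0.00336), when 12% passed. The week 2 call was lost when replicate 1 or 2 of control week 1 or of NASH week 2 was left out (adjusted p = 0.0574, 0.0585, 0.121 and 0.0658), and the week 6 call was lost without replicate 2 of NASH week 6 (0.0503).

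**Figure D2:**
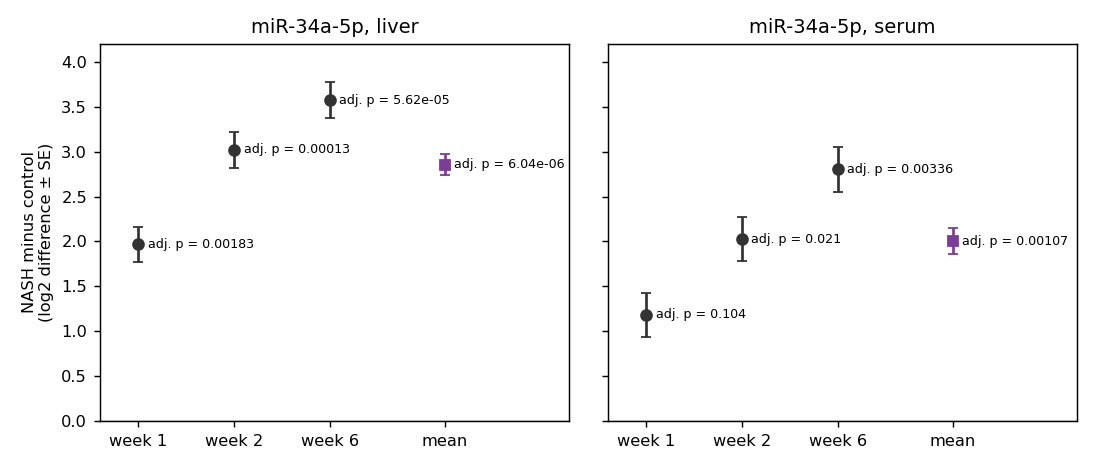
Log2 difference of miR-34a-5p between NASH and control arrays, with its standard error, at each week (circles, 2 arrays per diet) and over the 3 weeks (squares), with limma's adjusted p over all miRNAs tested. The estimates run 1.97, 3.02 and 3.58 in liver and 1.18, 2.03 and 2.80 in serum for weeks 1, 2 and 6.

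The 2 probes of miR-34a-5p gave nearly the same answer. The dimmer probe differed by 2.94 in liver and 2.02 in serum over the 3 weeks on the log2 scale, the brighter probe by 2.85 in liver and 2.00 in serum. Replicate spots of the brighter probe had a coefficient of variation of 1.84% to 7.96% on liver arrays and 2.20% to 10.1% on serum arrays.

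**Figure D3:**
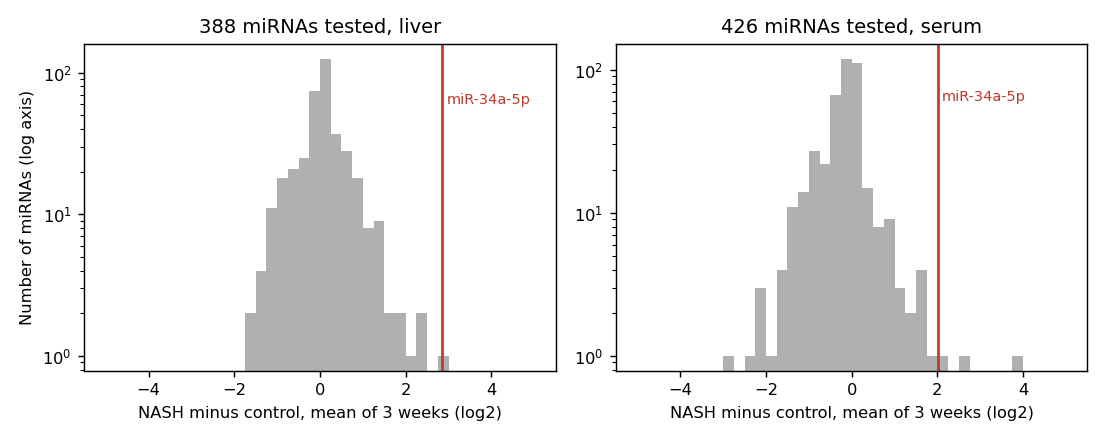
Histogram of the log2 difference between NASH and control arrays over the 3 weeks for all miRNAs tested in liver (388) and serum (426), with the number of miRNAs on a log axis. The line marks miR-34a-5p, at 2.85 in liver, where no miRNA lies above it, and at 2.00 in serum, where miR-122-5p (3.82) and miR-192-5p (2.65) lie above it.

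Among NASH livers the levels stood in the order of time on the diet. Scaled levels, as log2 of the signal over the 75th percentile of the array, were 0.08 ± 0.37, 0.77 ± 0.06 and 1.26 ± 0.07 in NASH livers at weeks 1, 2 and 6 (SD, n = 2 each). In control livers they were -1.88 ± 0.13, -2.25 ± 0.31 and -2.32 ± 0.05 at the same weeks. The NASH pairs of neighbouring weeks did not overlap. Nor did the control pairs of weeks 1 and 2, while those of weeks 2 and 6 did. Before scaling, the NASH liver pairs of weeks 1 and 2 overlapped (1101 and 593, against 883 and 1160). In serum the levels were -1.12 ± 0.30, 0.08 ± 0.33 and 0.76 ± 0.07 on NASH arrays at weeks 1, 2 and 6, and -2.30 ± 0.24, -1.95 ± 0.02 and -2.04 ± 0.38 on control arrays (SD, n = 2 each). The NASH serum pairs did not overlap either, nor did the control serum pairs of weeks 1 and 2. The control serum pairs of weeks 2 and 6 did.

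Whether the diet difference itself changed with time was tested as an interaction. In liver it was larger at week 6 than at week 1 by 1.61 on the log2 scale (SE 0.28, adjusted p = 0.0327), a contrast in which 4.12% of miRNAs passed. That call held without replicate 1 of NASH week 1, either replicate of control week 2 or replicate 2 of NASH week 6, and was lost without any other 1 of the 12 liver arrays (adjusted p up to 0.111). It was also lost when arrays were scaled on all probes (adjusted p = 0.410) or not scaled (0.637). Week 2 minus week 1 gave 1.05 (SE 0.28, adjusted p = 0.138, with 3.35% passing) and week 6 minus week 2, which lay on 1 slide, gave 0.55 (SE 0.28, adjusted p = 0.486, with 1.29% passing). Week 1 and week 6 livers lay on different slides, so slide and week cannot be told apart for the level of either diet.

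Taken by diet, miR-34a-5p rose in NASH livers by 1.17 at week 6 against week 1 (SE 0.20, adjusted p = 0.0135, with 12.4% of miRNAs passing). Without replicate 2 of NASH week 1 or replicate 1 of NASH week 6 it did not pass (0.0518 and 0.0615). In control livers the same contrast was -0.44 (SE 0.20, adjusted p = 0.830, with 0.515% passing). In serum the diet difference at week 6 minus week 1 was 1.62 (SE 0.35) and did not pass (adjusted p = 0.113, with 0.469% passing). The serum estimates for week 2 minus week 1, which shared a slide, and for week 6 minus week 2 were 0.84 (SE 0.35, adjusted p = 0.910, with 0% passing) and 0.78 (SE 0.35, adjusted p = 0.676, with 0.235% passing). NASH sera rose by 1.88 at week 6 against week 1 (SE 0.25, adjusted p = 0.0259, with 0.939% passing), a call that held only without replicate 1 of NASH week 1, of control week 2 or of NASH week 6 among the 12 arrays left out in turn (adjusted p up to 0.212). Control sera differed by 0.26 in that contrast (SE 0.25, adjusted p = 0.757, with 1.88% passing). Week 1 and week 6 sera also lay on different slides, so slide and week cannot be told apart for these levels.

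The tissues were compared on a common scale set by 163 probes bright on all 24 arrays. The diet difference of miR-34a-5p was larger in liver than in serum by 1.21 on the log2 scale (SE 0.21, adjusted p = 3.64e-04), a contrast in which 46.8% of 293 miRNAs passed. The direction was the same under each scaling tried, but the size ran from 0.17 with quantile normalization to 1.41 with normexp, and 4 scalings ended the call. With each tissue scaled on its own probes the gap was 0.85 (adjusted p = 0.00251). The levels themselves could not be ordered between tissues. Liver minus serum was 0.36 on NASH arrays (SE 0.15, adjusted p = 0.0401, with 68.6% of miRNAs passing), between 0.068 and 1.46 over the other settings. On control arrays it was -0.85 (SE 0.15, adjusted p = 8.94e-05, with 83.6% passing) and turned to 1.11 when scaled on all probes, 0.31 with quantile normalization and 0.97 without scaling. No week had both tissues on the same slide, so slide and tissue cannot be told apart for these levels. The labelled input was 100 ng of liver RNA but 2.5 ng of serum RNA, so input and tissue cannot be told apart, and neither can fewer cells of a type and less RNA per cell.

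**Figure D4:**
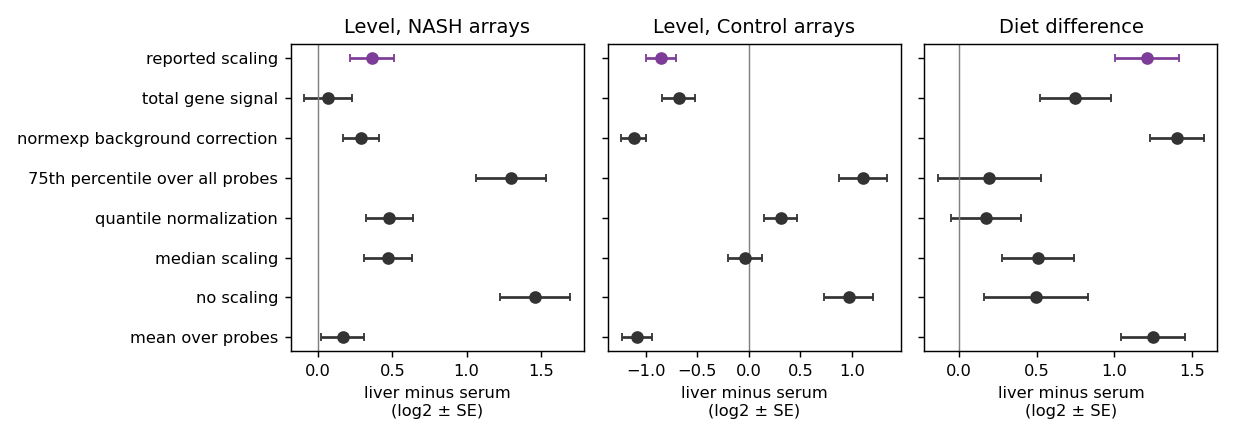
miR-34a-5p in liver minus serum (log2, with standard error) under each scaling or summary of the signal, for the level on NASH arrays, the level on Control arrays and the diet difference (n = 6 arrays per tissue and diet). The level difference on Control arrays runs from -1.12 to 1.11, crossing 0, and the diet difference from 0.17 to 1.41.

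miR-34b-5p shares the seed of miR-34a-5p and was the only other member detected on any array. In liver its probes were well above background on 1 of 6 NASH arrays and 0 of 6 control arrays, and the detection flag of the scanner software was set on 4 of 6 NASH arrays and 0 of 6 control arrays. The exact permutation test gave two-sided p = 1 and p = 0.0833, the smallest values that so few detected arrays allow. Neither count could have passed, so the test decides nothing here. In serum both counts were 0 of 6 NASH and 0 of 6 control arrays. On the scaled axis miR-34b-5p lay at the floor on 12 of 12 liver arrays, so its limma difference was 0 and no fold can be given. The within-array difference between miR-34a-5p and miR-34b-5p, the single pair that qualified, therefore only repeats the change of miR-34a-5p and compares nothing.

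Below the detection limit the intensities can still be read. The brighter miR-34b-5p probe read 12.4 and 6.01 in NASH livers, against 1.85 and 5.21 in control livers, at week 1. It read 6.38 and 9.47 in NASH livers and 3.71 and 2.03 in control livers at week 2, and 7.98 and 11.6 in NASH livers and 1.70 and 3.81 in control livers at week 6. All 6 NASH livers lay above all 6 control livers, with means of 8.96 ± 2.64 and 3.05 ± 1.41 (SD, n = 6 each). The exact permutation of diet within weeks gave p = 0.00926, the smallest possible, and 0.125 after adjustment over the 3847 probes well above background on fewer than 2 liver arrays. Of these probes 3.95% had every NASH array above every control array. The dimmer miR-34b-5p probe averaged 3.23 ± 1.80 in NASH livers and 1.60 ± 0.64 in control livers (SD, n = 6 each; exact permutation p = 0.0648).

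The probes of miR-34c-5p, the 5p arm of the neighbouring hairpin, were not well above background on any array, nor detected by the software. Even so, the brighter probe read 5.86 and 3.59 in NASH livers and 0.355 and 0.784 in control livers at week 1. At week 2 it read 2.45 and 3.83 in NASH livers, against -0.150 and -0.606 in control livers, and at week 6 it read 1.61 and 4.70 in NASH livers, against -0.795 and 0.363 in control livers. Again the diets did not overlap (exact permutation p = 0.00926, adjusted over the same 3847 probes 0.125), with means of 3.67 ± 1.53 in NASH livers and -0.008 ± 0.615 in control livers (SD, n = 6 each). The dimmer probe averaged 0.057 ± 0.805 in NASH livers and -1.29 ± 0.37 in control livers, with p = 0.0185 by exact permutation and overlapping diets. Among the 3847 dim liver probes, 38 had a difference at least as large as the brighter miR-34b-5p probe and 106 at least as large as the brighter miR-34c-5p probe, these probes included. The median difference of all of them was 0.188 units.

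In serum the same probes stayed near background. The brighter miR-34b-5p probe averaged 2.15 ± 0.39 in NASH sera and 2.38 ± 1.19 in control sera, with p = 0.704 by exact permutation. Divided by the 75th percentile of the array it averaged 0.0052 ± 0.0018 in NASH sera and 0.0095 ± 0.0052 in control sera (SD, n = 6 each; exact permutation p = 0.0370, adjusted over the dim probes 0.124). The brighter miR-34c-5p probe averaged -1.53 ± 0.55 in NASH sera and -0.191 ± 0.834 in control sera (SD, n = 6 each). Its highest NASH serum, at -1.14, lay just below its lowest control serum, at -1.11 (exact permutation p = 0.00926, adjusted over 3821 dim serum probes 0.228), as was so for 0.759% of these probes, and after scaling the diets overlapped. Every NASH array was above every control array for 0.523% of the dim serum probes, among them no probe of the family. The 2 NASH sera of week 6, where miR-34a-5p read 553 and 715, had 2.42 and 2.44 for miR-34b-5p and -2.02 and -2.42 for miR-34c-5p. The NASH liver of week 1 with miR-34a-5p at 593 had 6.01 for miR-34b-5p and 3.59 for miR-34c-5p. Binding of miR-34a-5p to these probes was not tested.

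**Figure D5:**
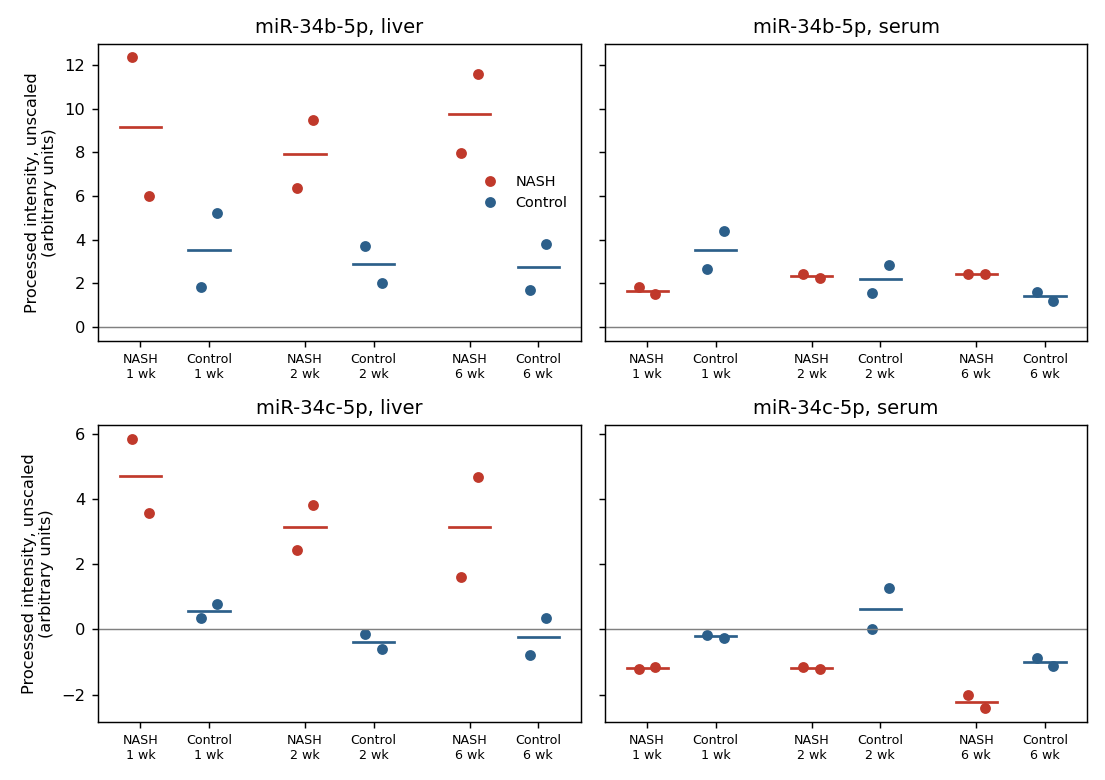
Processed intensity of the brighter probe of miR-34b-5p (top) and miR-34c-5p (bottom) on each array (points; arbitrary units) with the mean of each pair (bars), NASH left of Control, in liver and serum. The 6 NASH livers lie between 6.01 and 12.4 for miR-34b-5p and between 1.61 and 5.86 for miR-34c-5p, above all control livers, while in serum the highest reading is 4.40 for miR-34b-5p and 1.26 for miR-34c-5p, both on control arrays.

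The 3p arms showed no such separation. miR-34b-3p read -0.080 to 2.37 in NASH livers and -0.028 to 2.51 in control livers over its 2 probes, and miR-34c-3p read -2.96 to -0.565 in NASH livers and -2.77 to -0.563 in control livers. In serum miR-34b-3p read 0.022 to 1.81 on NASH arrays and 0.426 to 3.50 on control arrays, and miR-34c-3p read -2.74 to -0.552 on NASH arrays and -3.88 to -0.233 on control arrays. Neither was detected on any of the 24 arrays by either flag. Of the 8 probes outside miR-34a-5p, 2 had every NASH liver above every control liver, as had 3.95% of the 3847 dim liver probes. Only 0.052% of these dim probes had every NASH liver below every control liver, so dim probes in general read higher on NASH livers.

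The close relatives of the family were not detected. miR-34a-3p, the other arm of the miR-34a hairpin, and the seed-sharing miR-449a-5p and miR-449c-5p were detected on 0 of 24 arrays. The same held for miR-449b, whose sequence was not compared, and for miR-449a-3p and miR-449c-3p. The miR-449 group is known from multiciliated epithelium. Probes of all 6 relatives read between -5.76 and 1.57 over both tissues.

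Of 11 miRNAs listed as induced by p53 or matured with its help, 10 were tested in liver, where 0 rose, 5 fell and 5 did not pass, with a median of -0.28 against 0 for all miRNAs tested. Of all miRNAs tested in liver 21.9% rose and 20.4% fell, 42.3% together. Calls of a fall in liver depended on the scaling, with 79 miRNAs falling here and 9 without scaling. miR-200c-3p differed by 0.80 (SE 0.29) and did not pass (adjusted p = 0.0688), and miR-215-5p was not detected in liver. Of the 5 that did not pass, miR-200c-3p was detected on 6 of 6 NASH and 2 of 6 control livers. miR-141-3p was detected on 6 and 4, and miR-145a-5p on 4 and 1. The floor limits the differences of these miRNAs, so a rise in them could be missed. miR-143-3p and miR-16-5p were detected on 6 of 6 livers of each diet. The hepatocyte miRNAs miR-192-5p and miR-194-5p, which are also p53 targets, fell by 1.26 (SE 0.13, adjusted p = 4.40e-04) and by 1.06 (SE 0.06, adjusted p = 4.13e-05). miR-22-3p fell by 0.88 and miR-15a-5p by 0.50 (adjusted p = 3.25e-04 and 0.0444). In serum all 11 were tested, and 2 rose, 2 fell and 7 did not pass, with a median of -0.17 against -0.11 for all tested, of which 4.93% rose and 13.8% fell. miR-192-5p rose there by 2.65 (SE 0.22, adjusted p = 0.00107) and miR-22-3p by 0.71 (SE 0.15, adjusted p = 0.0193), while miR-215-5p fell by 1.12 (SE 0.30, adjusted p = 0.0468) and miR-200c-3p by 0.33 (SE 0.06, adjusted p = 0.0151). This miR-200c-3p value is set against the floor, as it was detected on 0 of 6 NASH and 3 of 6 control sera.

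Of 5 miRNAs that repress the p53 message Trp53, 4 were tested. In liver 1 rose, miR-125a-5p by 0.64 (SE 0.09, adjusted p = 0.00178), 1 fell, miR-30d-5p by 0.27 (SE 0.08, adjusted p = 0.0289), and 2 did not pass, with a median of 0.09, a share of calls near that of all miRNAs (42.3%). In serum 0 rose, 2 fell and 2 did not pass, with a median of -0.76, where 18.8% of all miRNAs passed. Those that fell were miR-125b-5p, by 1.06 (SE 0.29, adjusted p = 0.0468), and miR-25-3p, by 0.78 (SE 0.16, adjusted p = 0.0193).

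Marker miRNAs of several cell types differed with diet on the same arrays as miR-34a-5p. Against 21.9% of all miRNAs that rose and 20.4% that fell in liver, 5 of 7 immune miRNAs rose, 0 fell and 2 did not pass (median 0.74), and their summed scaled signal was 3.16 to 4.68 in NASH livers and 1.30 to 1.86 in control livers. Among those that rose, miR-155-5p was detected on 6 of 6 NASH and 1 of 6 control livers, so its value is set against the floor. Of the stellate cell and fibroblast list 3 of 6 rose, 0 fell and 3 did not pass (median 0.68), with sums of 1.27 to 2.02 in NASH livers and 0.822 to 1.13 in control livers. Among those that did not pass, miR-145a-5p was detected on 4 of 6 NASH and 1 of 6 control livers, and its difference of 0 reflects the floor. Of the hepatocyte list 9 of 10 fell, 0 rose and 1 did not pass (median -1.01), with sums of 66.7 to 127 in NASH livers and 166 to 191 in control livers. Both endothelial arms of miR-126a and 3 of 4 red cell miRNAs fell as well. Without scaling, 9 of all 388 miRNAs tested in liver fell, so calls of a fall depend on the scaling. Of the pancreatic and neuroendocrine list miR-7a-5p alone was tested, and it fell by 0.99 (SE 0.25, adjusted p = 0.0190). The part of these cell types in the miR-34a-5p difference was not tested.

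In serum, where 4.93% of all miRNAs rose and 13.8% fell, 5 of 9 tested hepatocyte miRNAs rose, 0 fell and 4 did not pass (median 0.82), and its summed scaled signal was 19.4 to 32.3 in NASH sera and 1.06 to 4.57 in control sera. Among its members miR-122-5p, the dominant miRNA of hepatocytes, rose by 3.82 (SE 0.57, adjusted p = 0.00600). Also counted as risen were miR-122-3p, detected on 6 of 6 NASH and 0 of 6 control sera, and miR-193a-3p, detected on 6 of 6 and 1 of 6. The values of these last miRNAs are set against the floor. Of the 4 that did not pass, miR-192-3p (0.013) was detected on 6 of 6 NASH and 0 of 6 control sera, and miR-455-3p (-0.35) on 1 of 6 and 4 of 6. The floor limits these differences too. Of the immune list 1 rose, 3 fell and 3 did not pass (median -0.19), with sums of 6.40 to 21.6 in NASH sera and 5.97 to 12.9 in control sera. Among those that fell, miR-155-5p (-0.19, SE 0.016) was detected on 2 of 6 NASH and 3 of 6 control sera, so its value is set against the floor. Of the stellate cell list 0 rose, 3 fell and 3 did not pass (median -1.25), with sums of 0.107 to 0.726 in NASH sera and 0.908 to 1.72 in control sera. Of the red cell list 2 of 3 fell, of the endothelial list 0 of 2 passed, and miR-375-3p, an islet miRNA, fell by 2.46 (SE 0.26, adjusted p = 0.00217). The multiciliated list, miR-449a-5p, miR-449b and miR-449c-5p, was undetected in both tissues. The part of these sources in the serum difference was not tested.

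The miRNAs whose levels most resembled miR-34a-5p were looked up among those well above background on all 12 arrays of a tissue. In liver, among 170 such miRNAs, these were miR-342-3p (Pearson r = 0.995 over 12 arrays), miR-15b-5p (0.991), miR-500-3p (0.968), miR-652-3p (0.964) and miR-214-3p (0.962). miR-342-3p, abundant in lymphocytes, rose by 2.41 in liver (SE 0.10, adjusted p = 6.08e-06), close to the size of miR-34a-5p, while miR-15b-5p rose by 0.96 (SE 0.07, adjusted p = 8.85e-05). In serum, among 155 miRNAs, they were miR-342-3p (r = 0.943), miR-221-3p (0.858), miR-192-5p (0.816), miR-122-5p (0.810) and miR-714 (0.807). miR-342-3p thus stood first in both tissues. Serum miR-342-3p rose by 1.70 (SE 0.26, adjusted p = 0.00600), as the 1 miRNA of the immune list that rose there. miR-150-5p of that list rose by 0.45 in liver (adjusted p = 0.00969) and fell by 1.32 in serum (adjusted p = 0.0264). miR-142a-3p did not pass in liver (0.65, adjusted p = 0.0744) and fell by 1.34 in serum (adjusted p = 0.0240). The arrays of a tissue share the diet contrast, the slides and the scaling, so these coefficients describe likeness across the 12 arrays.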

How the data were processed

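Per the labels, miRNA from liver (100 ng RNA) or serum (2.5 ng RNA from 200 µL) was labelled with Cy3 and hybridised to Agilent mouse miRNA arrays. The deposited files hold spot intensity values from Agilent Feature Extraction 11.5.1.1, per the file headers (11.5 in the submitters' processing notes), background-subtracted and not normalized between arrays. Control and outlier spots were dropped, no spot was saturated, and a probe's value is the mean of its spots. A probe was well above background where a share of at least 0.5 of its spots was. Intensities were scaled to the array's 75th percentile over probes bright on every array of a tissue (299 in liver, 253 in serum), floored at the 5th percentile of detected signals, which held 35.6% of liver and 39.1% of serum values, and put on the log2 scale. At the floor standard errors can be too small. The brightest probe stood for a miRNA. Those detected on at least 2 arrays were fitted with limma 3.58.1 (R 4.3.3), with a mean per tissue, diet and week and Benjamini-Hochberg adjusted p-values over all miRNAs tested, called below 0.05. Intensities below detection were tested by exact permutation of diet within weeks, chosen after seeing the data. The fits were tested on simulated data.

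The members and lists were chosen with earlier results of these data known. Every member and every listed close relative (miR-34a-3p and the miR-449 group) was named, with up to 4 called miRNAs from each list and the 5 most alike by correlation. Alternatives covered background correction, scaling, floor, filter, probe summary, blocks and leaving out each array. Replicate numbers coincided with slide row, but the replicate block was set within each week and the row block was shared by the weeks. Across miRNAs, a NASH and a control array of 1 number deviated from their group means with correlations of 0.55, 0.14 and 0.18 in serum (weeks 1, 2 and 6). The same correlations were -0.60, 0.42 and 0.49 in liver. The main fits did not pair arrays by number in either tissue, and the replicate block was an alternative in both.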

Additional observations from a re-analysis of the deposited data

Results flagged for a closer look

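The diet difference of miR-34a-5p in liver was larger at week 6 than at week 1 by 1.61 on the log2 scale (interaction in limma, adjusted p = 0.0327). It drew attention because the diet difference differed between time points by a test of the difference itself. Liver week 1 and week 6 lay on different slides, each with both diets.

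The diet difference of miR-34a-5p was larger in liver than in serum by 1.21 on the log2 scale (interaction in limma over all 24 arrays, adjusted p = 3.64e-04). It drew attention because the same contrast differed between tissues by a test of the difference itself. With each tissue scaled on its own probes, a setting chosen after seeing the data, it was 0.85 (adjusted p = 0.00251).

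No group of arrays had between 4 and 10 members, so no array was examined as an outlier within its group.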

How the results depend on the processing

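The miR-34a-5p difference in liver passed under each alternative, between 2.37 and 3.28 over the 3 weeks, and between 2.77 and 2.94 leaving out each array in turn. Leaving out arrays gave ranges of 1.71 to 2.23, 2.80 to 3.19 and 3.53 to 3.62 in liver at weeks 1, 2 and 6, and 1.80 to 2.26 and 2.57 to 3.18 in serum at weeks 2 and 6. The liver interaction of week 6 minus week 1 ran from 1.35 to 1.87 and NASH arrays alone from 0.91 to 1.43; NASH sera ran from 1.67 to 2.09 and liver minus serum on NASH arrays from 0.28 to 0.44.

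The liver interaction did not pass on all probes (1.64), without scaling (1.58), or at an unchanged 1.61 with no filter, slide row as a block (adjusted p = 0.0609) or the replicate block (0.176). NASH livers, week 6 minus week 1, did not pass on all probes (1.12), without scaling (1.06) or with no filter (1.17). The replicate block, which leaves out the serum array without a number in its label, ended the serum calls over the 3 weeks (2.11, adjusted p = 0.0516), at week 2 (2.03, 0.178) and at week 6 (3.12, 0.0976), and among the contrasts of NASH with control, where it was fitted, it changed no other call than these and the liver interaction. With no filter serum week 2 (2.03, 0.159) did not pass. NASH sera, week 6 minus week 1, did not pass on all probes (1.87), without scaling (1.26), with no filter (1.88) or with slide row as a block (1.88); control sera passed with normexp (0.55, 0.0219). Liver minus serum on control arrays reversed on all probes (1.11), with quantile normalization (0.31) and without scaling (0.97), and was -0.038 with median scaling. On NASH arrays it did not pass with total gene signal (0.068), the mean over probes (0.17) or trend and robust estimation (0.36). The diet difference of liver minus serum did not pass on all probes (0.19), with quantile normalization (0.17), median scaling (0.51) or no scaling (0.50). The causes were not tested.

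Over the 3 weeks 85 miRNAs rose and 79 fell in liver, against 33 and 83 with normexp, 63 and 37 on all probes, 61 and 48 with no filter and 117 and 9 without scaling. In serum 21 rose and 59 fell, against 38 and 48 with total gene signal, 15 and 348 with normexp, 32 and 7 on all probes, 29 and 29 with quantile normalization, 36 and 39 with median scaling, 37 and 7 without scaling, 10 and 25 with no filter and 5 and 18 with the replicate block; leaving out single arrays gave 48 to 118 calls in all. Slide as a random block was not run, since each group lay on 1 slide. miR-34b and miR-34c are limited by signal over background, and 2 arrays per group limit precision.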
